A study of Mus musculus with 30 samples.

Results

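Wild-type cerebral cortex of the COX-2 line (COX-2+/+) was compared with wild-type cortex of the COX-1 line (COX-1+/+), the control mice of 2 knockout lines that lack either cyclo-oxygenase. The comparison took the 3 cortex arrays labelled COX-2 wild type and the 3 labelled COX-1 wild type, 6 of the 30 arrays of the series, and measured how far apart these control groups lie. All mice were 12 weeks old and of a mixed genetic background, and neither wild-type group carried a deleted allele or received a treatment. Per the study's methods, heterozygotes of each line were kept as a colony of their own, and wild-type mice came from wild-type by wild-type matings of their offspring, so line and colony cannot be told apart. The labels give no sex. Further sets used below are arrays of COX-2-/-, COX-1-/- and COX-2+/- cortex and of COX-2+/+ and COX-1+/+ hippocampus. Each set has 3 arrays, of mice of the same age. None entered the wild-type cortex difference, but the cortex arrays among them entered its estimate of spread and so affected its calls.

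Cyclo-oxygenases convert arachidonic acid into the precursor of prostaglandins and thromboxane. In brain, COX-1, encoded by Ptgs1, is known mainly from microglia, and COX-2, encoded by Ptgs2, mainly from excitatory neurons, where synaptic activity induces it. Both wild-type groups carry intact copies of the 2 genes, so a difference between them is not one between presence and absence of either enzyme. Lines of mixed background that are bred apart can come to carry different alleles at any locus, which these arrays do not read. Line also cannot be told apart from any difference in how the arrays of the 2 wild-type groups were processed.

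Each value is a Z score, the natural log intensity of a probe on an array minus the mean of that array and divided by its SD, as the authors computed it, with each of the 2 parts of the probe table standardised on its own. A difference in Z is therefore in units of an array's SD and is not a fold change. Of 16896 probes, only the later part of the table was used, 8448 probes, because in the earlier part the 3 COX-1+/+ arrays and COX-1-/- replicates 1 and 2 carry the same number at every probe. Of the probes used, 4103 had a mean Z above 0 over the 6 arrays and were tested, and 2337 of these carry a single gene symbol and cover 2142 genes. Arrays correlated with r of 0.988 to 0.992 within COX-2+/+ and of 0.984 to 0.986 within COX-1+/+, against 0.982 to 0.987 between the groups. The COX-1-/- array of replicate 3, which does not share those copied values, correlated with the COX-2+/+ arrays at 0.990 to 0.991 and with the COX-1+/+ arrays at 0.983 to 0.984. It entered the estimate of spread but not the wild-type difference, and results of null cortex, which rest on it, are given with and without it. Cortex identity could be checked only in part, since no tested probe was from the oligodendrocyte list and 1 gene was from the glutamatergic list, Nefl, a neurofilament subunit, with a mean Z of 0.320 in COX-2+/+ and 0.193 in COX-1+/+ cortex. The mean of the 2 hippocampal marker probes and that of the 2 striatal ones lay below -0.8 on each of the 6 arrays, although Lct averaged -0.366 and Ppp1r1b -0.609 in COX-2+/+ and -0.289 and -0.548 in COX-1+/+ cortex.

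Cortex of the COX-2 line differed from cortex of the COX-1 line mostly by lower signals. By limma, with Benjamini-Hochberg adjustment over all tested probes, 197 of 4103 probes (4.8%) passed an adjusted p of 0.05, 49 higher (1.19%) and 148 lower (3.61%) in COX-2+/+ cortex, and 787 had an unadjusted p under 0.05. The count fell to 52 without COX-2+/+ replicate 3 and to between 111 and 121 without COX-2+/+ replicate 1 or 2 or COX-1+/+ replicate 2 or 3, and it was 120, 9 higher and 111 lower, when the 6 arrays were fitted alone. Without the filter on mean Z, 69 of the 197 stayed called. The split ran against the bulk of the table, in which 42.7% of tested probes had the lower mean in COX-2+/+ and the median difference was 0.0128. Lower calls had a median difference of -0.249 and reached -0.576, while higher calls had a median of 0.184 and reached 0.345. The smallest called difference was 0.140, against an SD of 0.0937 over all tested probes. All 197 called probes had no overlap between the 2 groups of arrays, a property shared by 872 tested probes (21.3%). Of the called probes, 125 carry a single symbol, for 124 genes, 28 probes higher and 97 lower. Precision is limited by the 3 arrays in each group, for which the smallest two-sided p of an exact permutation test is 0.1. Since the methods mention both 3 mice in a group and triplicate hybridisation, and the labels do not settle which the arrays are, p-values refer to the spread between arrays, which may be technical.

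**Figure D1:**
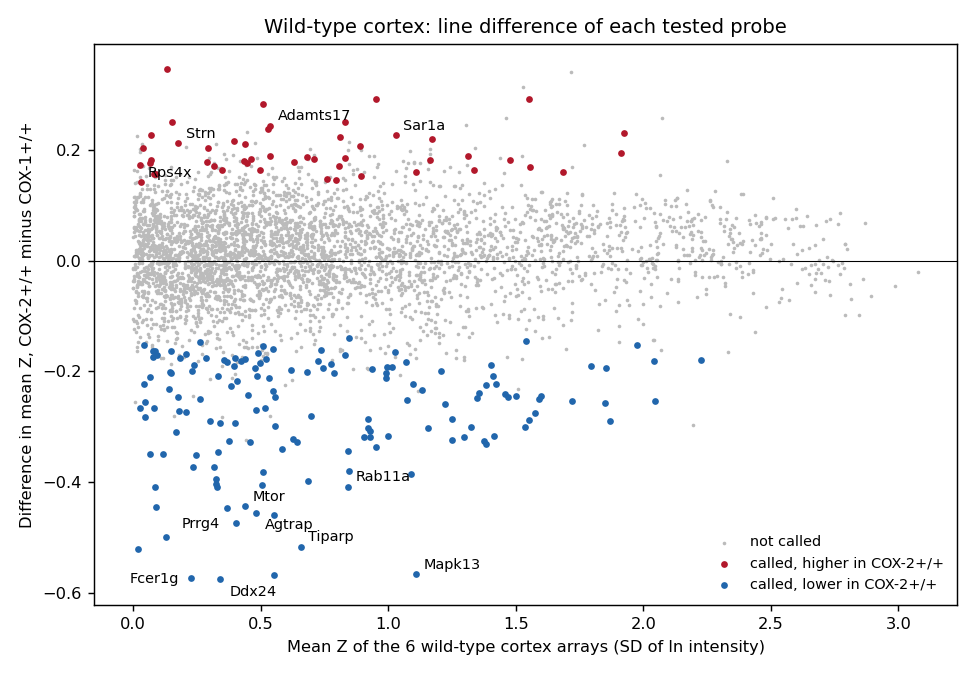
Difference in mean Z between COX-2+/+ and COX-1+/+ cortex (vertical axis, SD units of ln intensity) against the mean Z of the 6 arrays (horizontal axis), 1 point for each of 4103 tested probes. The 148 lower calls (blue) reach -0.576 and the 49 higher calls (red) reach 0.345.

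Among named genes, the largest reductions belonged to an RNA helicase, an Fc receptor chain and a stress-activated kinase. Ddx24, a DEAD-box RNA helicase, had a Z of 0.167, 0.116 and -0.121 in COX-2+/+, against 0.530, 0.712 and 0.647 in COX-1+/+ cortex. Every COX-2+/+ array lay below every COX-1+/+ array (difference -0.576, SE 0.113, limma adjusted p = 0.00661). Genes named for their differences were taken only from probes without overlap, so separation of the groups is no further evidence for them. For Fcer1g, the signalling chain that Fc receptors of microglia and other myeloid cells share, the Z was 0.0174, 0.0217 and -0.216 in COX-2+/+, against 0.372, 0.627 and 0.542 in COX-1+/+ cortex. Replicate 3 of COX-2+/+ was the lowest of the 6 arrays for both genes, and the groups stood apart for Fcer1g as well (difference -0.573, SE 0.105, limma adjusted p = 0.00453). Mapk13, the delta form of p38 MAP kinase, was at 0.959, 0.872 and 0.652 in COX-2+/+, against 1.31, 1.48 and 1.39 in COX-1+/+ cortex. Its COX-2+/+ arrays were again all lower than its COX-1+/+ arrays (difference -0.567, SE 0.108, limma adjusted p = 0.00557). Without COX-2+/+ replicate 3, Ddx24 and Mapk13 missed the threshold, at adjusted p of 0.0576 and 0.0505, and Fcer1g kept its call.

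Tiparp and Prrg4 were lower by about as much and with a smaller error. Tiparp, which attaches single ADP-ribose units to proteins and is a target of the aryl hydrocarbon receptor, was at 0.553, 0.386 and 0.260 in COX-2+/+, against 0.852, 0.977 and 0.922 in COX-1+/+ cortex. The highest COX-2+/+ array lay 0.299 below the lowest COX-1+/+ array (difference -0.517, SE 0.0786, limma adjusted p = 0.00154). Prrg4, a membrane protein with a vitamin K-dependent Gla domain, was at 0.214, 0.171 and 0.114 in COX-2+/+, against 0.632, 0.665 and 0.624 in COX-1+/+ cortex. Both groups were tight, and the gap between them, 0.409, stood against SDs of 0.0502 and 0.0221 (difference -0.474, SE 0.0654, limma adjusted p = 0.00112). Arhgap20, a GTPase-activating protein, had -0.293, -0.194 and -0.234 in COX-2+/+, against 0.287, 0.247 and 0.307 in COX-1+/+ cortex, so its COX-2+/+ arrays were below the array mean and its COX-1+/+ arrays above it (difference -0.521, SE 0.103, limma adjusted p = 0.00666).

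Mtor, the kinase at the centre of nutrient and growth signalling, was lower in COX-2+/+ cortex. Its Z was 0.219, 0.237 and 0.195 in COX-2+/+, against 0.688, 0.646 and 0.648 in COX-1+/+ cortex. The arrays of a group lay within 0.0426 of each other in COX-2+/+ and 0.0419 in COX-1+/+, and the groups did not overlap (difference -0.444, SE 0.0831, limma adjusted p = 0.00478). Ctnnd1, the p120 catenin that holds cadherins at the cell surface, was at 0.288, 0.352 and 0.273 in COX-2+/+, against 0.795, 0.694 and 0.638 in COX-1+/+ cortex, with all COX-2+/+ arrays lower (difference -0.405, SE 0.0643, limma adjusted p = 0.00168), while a second probe below the filter differed by 0.000355. Agtrap, which binds the angiotensin II type 1 receptor and favours its internalisation, was at 0.288, 0.317 and 0.156 in COX-2+/+, against 0.632, 0.754 and 0.742 in COX-1+/+ cortex, again without overlap (difference -0.456, SE 0.0980, limma adjusted p = 0.0112). The call of Agtrap was lost without COX-2+/+ replicate 3 or without the filter on mean Z, with an adjusted p of up to 0.0793.

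Rab11a, Bub1b and Eif4a1 were, with Prrg4 and Tiparp, the 5 genes with the smallest p-values. Rab11a, a small GTPase of recycling endosomes, had the smallest of all, with a Z of 0.598, 0.683 and 0.633 in COX-2+/+, against 1.09, 1.07 and 0.982 in COX-1+/+ cortex (difference -0.408, SE 0.0494, limma adjusted p = 0.000309). The groups were separated by 0.298, more than the range within either of them. A second Rab11a probe, below the filter at -0.248 in COX-2+/+ and -0.409 in COX-1+/+ cortex, differed the other way, by 0.162. Bub1b, a kinase of the spindle checkpoint, was at 0.0926, 0.149 and 0.128 in COX-2+/+, against 0.505, 0.514 and 0.560 in COX-1+/+ cortex, and the arrays of a group lay within 0.0569 of each other in COX-2+/+ and 0.0554 in COX-1+/+ (difference -0.403, SE 0.0609, limma adjusted p = 0.00154). Eif4a1, the RNA helicase that unwinds messenger 5′ ends for translation initiation, was at 0.773, 0.798 and 0.783 in COX-2+/+, against 1.06, 1.18 and 1.13 in COX-1+/+ cortex, a difference of -0.338 that also exceeded the spread of both groups (SE 0.0489, limma adjusted p = 0.00150). Haspin, which phosphorylates histone H3 in mitosis, differed by -0.410 (SE 0.0952, limma adjusted p = 0.0181), with COX-2+/+ arrays at 0.0906, 0.251 and 0.0314 and COX-1+/+ arrays at 0.519, 0.571 and 0.512, but its call was lost without COX-2+/+ replicate 1 or 3, without COX-1+/+ replicate 2 and without the filter. Zfand6, a zinc finger protein that binds ubiquitin, gave opposite signs on its 2 probes, -0.447 on one (limma adjusted p = 0.00410) and 0.136 on the other (adjusted p = 0.0976), so no direction is given for the gene.

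**Figure D2:**
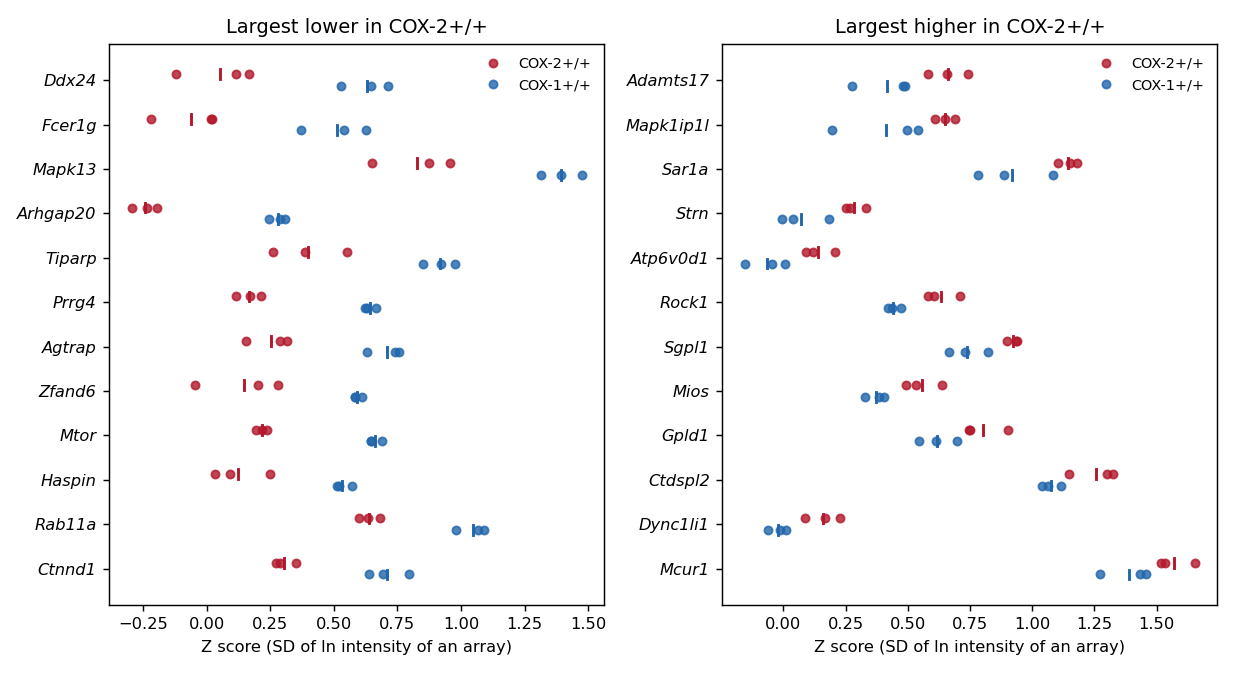
Z score of each of the 6 wild-type cortex arrays for the 12 named probes with the largest lower (left) and the 12 with the largest higher (right) differences, COX-2+/+ red above COX-1+/+ blue, with a bar at the mean of 3 arrays. The groups do not overlap for any of the 24 probes, since only probes without overlap were eligible. The differences are larger for the lower genes, from -0.576 for Ddx24 to -0.405 for Ctnnd1, than for the higher ones, from 0.181 for Mcur1 to 0.244 for Adamts17.

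Genes that were higher in COX-2+/+ cortex differed by less and their calls were less steady. Adamts17, a secreted metalloprotease of the extracellular matrix, led with a Z of 0.580, 0.657 and 0.742 in COX-2+/+, against 0.278, 0.482 and 0.487 in COX-1+/+ cortex. The lowest COX-2+/+ array stood 0.0921 above the highest COX-1+/+ array (difference 0.244, SE 0.0646, limma adjusted p = 0.0363). A second Adamts17 probe differed by -0.0244 and overlapped. Sar1a, the GTPase that starts the COPII coat of vesicles leaving the endoplasmic reticulum, was at 1.18, 1.15 and 1.10 in COX-2+/+, against 0.887, 1.08 and 0.782 in COX-1+/+ cortex, where 1 COX-1+/+ array came within 0.0190 of the COX-2+/+ arrays (difference 0.227, SE 0.0631, limma adjusted p = 0.0432). Strn, a scaffold of phosphatase complexes at dendritic spines, had 0.330, 0.267 and 0.252 in COX-2+/+, against -0.00749, 0.183 and 0.0375 in COX-1+/+ cortex, and its COX-1+/+ arrays were the more scattered (difference 0.212, SE 0.0543, limma adjusted p = 0.0316). Sgpl1, the lyase that degrades sphingosine-1-phosphate, was tight in the COX-2 line, at 0.940, 0.934 and 0.898 in COX-2+/+, against 0.730, 0.664 and 0.824 in COX-1+/+ cortex, and had the smallest adjusted p of these genes (difference 0.185, SE 0.0427, limma adjusted p = 0.0176). Rock1, a kinase that drives actomyosin contraction, was at 0.710, 0.580 and 0.606 in COX-2+/+, against 0.435, 0.473 and 0.418 in COX-1+/+ cortex, a difference of 0.190 with an adjusted p of 0.0409. Other higher genes were Mapk1ip1l (0.238), Atp6v0d1, a subunit of the vesicular proton pump (0.203), Mios, a part of the GATOR2 complex upstream of mTORC1 (0.184), Gpld1, which cleaves glycosylphosphatidylinositol anchors (0.183), Ctdspl2, a phosphatase (0.182), Dync1li1, a dynein subunit (0.181), and Mcur1, a regulator of mitochondrial calcium uptake (0.181), all with adjusted p from 0.0305 to 0.0488. The second Mios probe differed by -0.00387. Further probes below the filter differed by 0.283 and 0.110 for Rock1, 0.111 for Strn and 0.061 for Ctdspl2. Of the 44 called probes of named genes, 16 stayed called under every alternative in which they were tested, and all 16 were lower in COX-2+/+. Some of them failed the filter on mean Z in an alternative and were not tested there. Arhgap20 was tested in 12 of 16 alternatives, since it fell below the filter when any COX-1+/+ array was left out. The other 28 lost the call when at least 1 of the 6 arrays was left out. Each of the 12 higher genes of the array plot was among these 28, Adamts17 without COX-2+/+ replicate 2 or 3 or COX-1+/+ replicate 1, and Sgpl1 without COX-2+/+ replicate 1 or 2 or COX-1+/+ replicate 2.

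In the protein turnover and RNA processing lists, calls went both ways in the proteasome and spliceosome lists. The called share was 25% of proteasome and 13.3% of spliceosome probes, each from 4 calls or fewer. It was 4.76% of ubiquitin conjugation probes, beside 4.8% of all tested probes. Of 12 tested proteasome probes, 1 was higher and 2 were lower, and the list's median difference was 0.00924. Both lower probes were of Psmc1, an ATPase subunit of the proteasome's regulatory particle, and the first had a Z of 0.691, 0.698 and 0.620 in COX-2+/+, against 1.001, 1.04 and 1.005 in COX-1+/+ cortex. The differences on the 2 probes were -0.345 and -0.302 (limma adjusted p = 0.00656 and 0.0190). Psmc1 was the only gene of the 16 called genes with further tested probes that a second probe called in the same direction, and 8 of the 19 further probes had the same sign and none was called in the opposite direction. Psmd10, a chaperone of proteasome assembly, was higher by 0.169 (limma adjusted p = 0.0326), while a second probe below the filter differed by -0.0116. Of 30 spliceosome and hnRNP probes, 1 was higher and 3 were lower, with a median of 0.0406. Snrpe and Snrpg, subunits of the Sm ring of spliceosomal snRNPs, differed by -0.290 and -0.246, and Srsf10, a splicing regulator of the SR family, by -0.324 (limma adjusted p = 0.00492, 0.0138 and 0.0308). Snrpe was at 1.84, 1.70 and 1.64 in COX-2+/+, against 1.91, 2.07 and 2.07 in COX-1+/+ cortex, and the groups did not overlap. The gene of this probe is uncertain, since the study lists its accession under another gene name. A second Srsf10 probe, below the filter, differed by 0.0667. Rbm39, a splicing coactivator, was higher by 0.163 (limma adjusted p = 0.0215). In ubiquitin conjugation, 1 of 21 probes was lower, of Ube2s, the conjugating enzyme that extends ubiquitin chains for the anaphase-promoting complex (-0.232, limma adjusted p = 0.00740), while its second probe differed by -0.00405.

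The energy, translation and signalling lists had medians near 0. Of 32 oxidative phosphorylation probes, none was higher and 3 were lower, Atp5mpl, a small subunit of ATP synthase (-0.302), Ndufa10 of complex I (-0.327) and Cox6a1 of complex IV (-0.189), and the list's median was -0.00151. Atp5mpl was the firmest of these, at 0.995, 1.001 and 1.02 in COX-2+/+, against 1.30, 1.27 and 1.34 in COX-1+/+ cortex (difference -0.302, SE 0.0528, limma adjusted p = 0.00311). Its 6 arrays fell into 2 narrow ranges. Of 75 probes of cytosolic ribosomal proteins, 1 was called, an Rps4x probe higher by 0.142 (limma adjusted p = 0.0387), beside 2 further Rps4x probes at 0.157 and 0.0858 that missed the threshold. Translation factors had 1 of 19 probes called, the Eif4a1 probe above. Heat shock proteins and chaperones (18 probes), mitochondrial structure and import (10), and beta oxidation, acetyl-CoA and methionine metabolism (6) had 0 calls by limma, with 1, 2 and 2 probes at an unadjusted p under 0.05, and Immt in the mitochondrial list met the study's rule. In the MAP kinase and small GTPase list, 1 of 14 probes was higher and 3 were lower, with a median of -0.00870: Rab6a, a GTPase of Golgi transport, was higher by 0.153, and Mapk13, Rab11a and Arf3 were lower. Arf3, which recruits coats at the Golgi, was at 0.0265, -0.0889 and -0.104 in COX-2+/+, against 0.290, 0.329 and 0.262 in COX-1+/+ cortex, without overlap (difference -0.349, SE 0.0537, limma adjusted p = 0.00154). Beside 4.8% of all tested probes, the called share was 28.6% in the MAP kinase and small GTPase list, 25% in the proteasome list, 13.3% in the spliceosome list, 9.38% in the oxidative phosphorylation list and 1.33% in the ribosomal list, each from 4 calls or fewer.

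Smaller lists each gave at most 1 call. Nr3c1, the glucocorticoid receptor, was higher by 0.148 in COX-2+/+ cortex (limma adjusted p = 0.0322), with arrays at 0.852, 0.830 and 0.815 in COX-2+/+, against 0.673, 0.721 and 0.660 in COX-1+/+ cortex. Its arrays were tight in both groups, and the other 4 probes of the glucocorticoid and circadian list were not called. Glo1, which detoxifies methylglyoxal and whose copy number varies among inbred mouse strains, differed by -0.248 (limma adjusted p = 0.0272), with 1.32, 1.26 and 1.09 in COX-2+/+, against 1.38, 1.53 and 1.51 in COX-1+/+ cortex. The lowest COX-1+/+ array lay only 0.0590 above the highest COX-2+/+ array, and the other 4 probes of strain-variable genes, of H2-K1, Cd244a, Pttg1 and Erdr1, differed by -0.0300 to 0.0907 and were not called. Slc6a13, a GABA transporter, differed by -0.182 (limma adjusted p = 0.0480), with 2.02, 1.91 and 1.92 in COX-2+/+, against 2.05, 2.21 and 2.14 in COX-1+/+ cortex, groups only 0.0230 apart, and lost its call under median centring. Of 7 tested probes for prostanoid and arachidonic acid genes, 0 were called by limma or by the study's rule and 3 had an unadjusted limma p under 0.05, and differences ran from -0.134 for Ptger2, a receptor for prostaglandin E2, to 0.193 for Anxa2, a phospholipid-binding annexin. Pla2g4a, the phospholipase that releases arachidonic acid, differed by 0.0876 and Ptges3, a prostaglandin E synthase and Hsp90 co-chaperone, by 0.0613. Of the 4 NF-kappaB and JAK-STAT probes, 0 were called by either and 1 had an unadjusted p under 0.05. Among the list members above, Srsf10, Ndufa10, Cox6a1, Glo1, Psmd10, Rbm39, Rab6a, Nr3c1, Rps4x, Slc6a13 and the second Psmc1 probe each lost the call on omission of any of several single arrays, and Snrpg on omission of COX-2+/+ replicate 3.

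**Figure D3:**
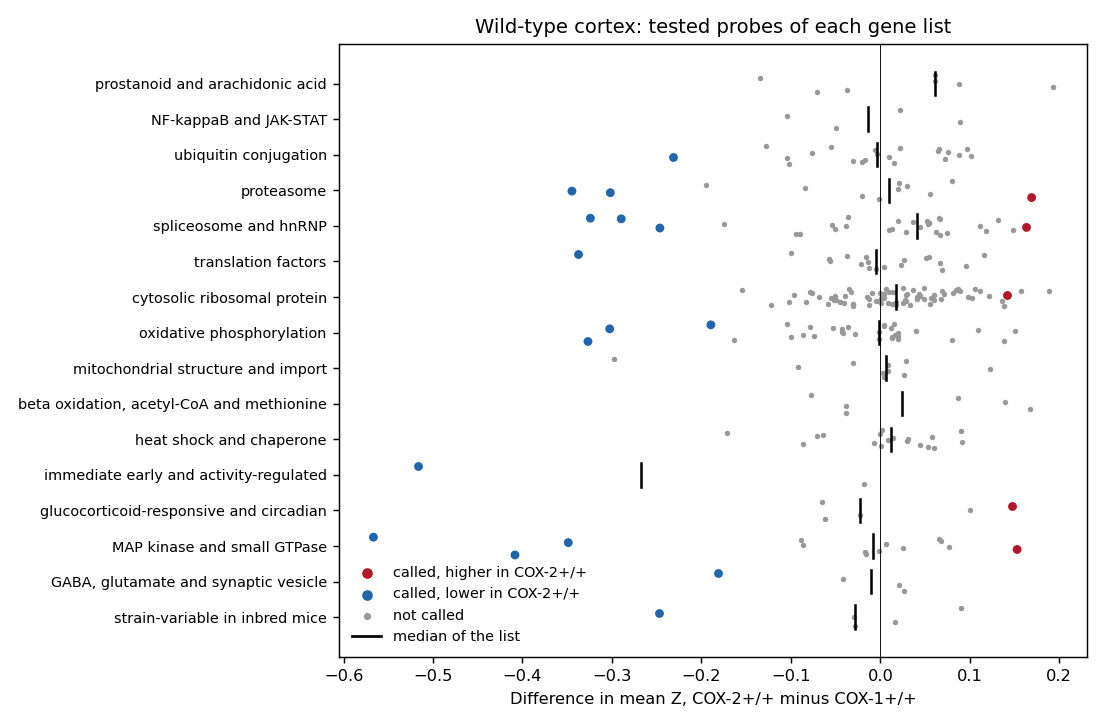
Difference in mean Z, COX-2+/+ minus COX-1+/+ cortex (horizontal axis, SD units of ln intensity), of every tested probe in 16 gene lists (rows), with a black bar at the list's median. List medians lie near 0, apart from the immediate early list of 2 probes. Called probes (blue lower, red higher) do not all lie at the edges of their lists, as the Rps4x probe at 0.142 lies within the range of uncalled ribosomal probes.

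Among cell type markers, 1 microglial probe, 1 probe of the GABAergic list and 1 of the meninges and fibroblast list were called lower. Blood probes were high on a single COX-1+/+ array. The call in the meninges and fibroblast list was Slc6a13, the GABA transporter above. Of the 10 tested probes of that list, 7 had the higher mean in COX-2+/+ cortex and 3 the lower, with a median difference of 0.0369. Of the 4 microglial genes measured, Fcer1g was called, and C1qb and C1qc, subunits of complement C1q, differed by -0.0860 and -0.0604 and were not called, while C1qa, untested, averaged -0.299 in COX-2+/+ and -0.350 in COX-1+/+ cortex. The mean over the 4 microglial probes ranged from 0.0661 to 0.105 in COX-2+/+ arrays and from 0.211 to 0.279 in COX-1+/+ arrays, but without Fcer1g from 0.117 to 0.160 in COX-2+/+ and from 0.157 to 0.191 in COX-1+/+ arrays, which overlap. Of 15 tested blood probes, all for alpha globin, 14 had the lower mean in COX-2+/+ cortex and 0 were called by limma or the study's rule, with 5 at an unadjusted limma p under 0.05 and a median difference of -0.114. The mean over all 17 blood probes was 0.388, 0.371 and 0.382 on COX-2+/+ arrays and 0.378, 0.432 and 0.643 on COX-1+/+ arrays. COX-1+/+ replicate 3 was the highest array at 14 of the 15 tested probes, without it 11 had the lower mean in COX-2+/+, and Slc4a1 and Alas2 were below 0 on every array. These probes recognise closely related globin sequences and cannot be counted as separate genes. Calb1, a calcium buffer, was the only gene of the GABAergic list measured, by 4 probes. One was lower, at 0.271, 0.260 and 0.105 in COX-2+/+, against 0.573, 0.518 and 0.520 in COX-1+/+ cortex (difference -0.325, SE 0.0550, limma adjusted p = 0.00250), the other tested probe differed by 0.0162, and the 2 below the filter by -0.0939 and -0.0396. The X-linked genes Kdm5c and Kdm6a, the tested members of the sex-linked list, differed by 0.00868 and -0.0560 and were not called. Below the filter, Xist averaged -0.738 in COX-2+/+ and -0.660 in COX-1+/+ cortex. Uty averaged -1.915 in COX-2+/+ and -1.732 in COX-1+/+ cortex, without overlap. These probes do not settle the sex of the mice. In whole tissue, fewer cells of a type and less RNA per cell cannot be told apart, and what part the blood and microglial levels had in the other differences was not tested.

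The remaining cortex arrays of the study allowed the called probes to be placed among genotypes. The mean Z over the 148 lower probes was 0.569, 0.616 and 0.585 on COX-2-/- arrays, 0.543, 0.610 and 0.570 on COX-2+/- arrays and 0.622, 0.623 and 0.532 on COX-2+/+ arrays, against 0.769, 0.791 and 0.576 on COX-1-/- arrays and 0.856, 0.876 and 0.865 on COX-1+/+ arrays. The COX-1+/+ arrays were the highest, as the choice of probes fixes, and all arrays of the other groups lay below them, those of COX-1-/- included, of which 1 lay among the arrays of the COX-2 line. Over the 49 higher probes the COX-2-/- arrays averaged 0.743, 0.726 and 0.709, the COX-2+/- arrays 0.740, 0.724 and 0.731, the COX-2+/+ arrays 0.787, 0.781 and 0.798, the COX-1-/- arrays 0.690, 0.712 and 0.757, and the COX-1+/+ arrays 0.587, 0.617 and 0.567. The wild-type values in these means are the ones that chose the probes and are given for scale. COX-1-/- replicate 3 was nearer to the COX-2+/+ mean at 179 of 197 called probes (90.9%), COX-1-/- replicates 1 and 2 at 74 and 73 (37.6% and 37.1%). At 77 of the 148 lower probes the COX-1-/- replicates 1 and 2 were nearer to COX-1+/+ and replicate 3 nearer to COX-2+/+, and at 28 all 3 were nearer to COX-2+/+.

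**Figure D4:**
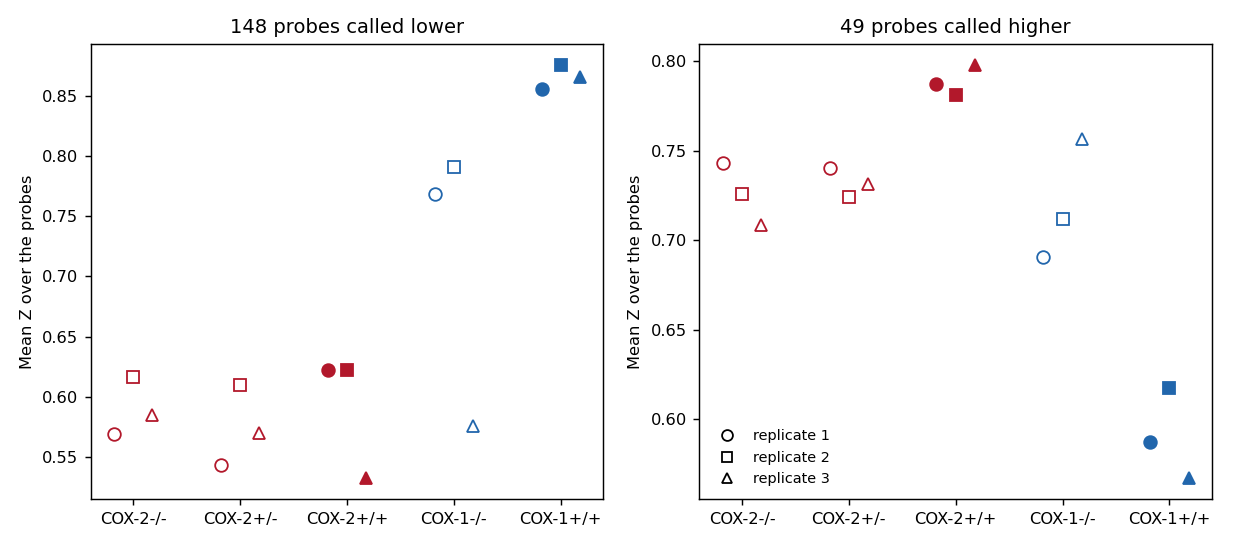
Mean Z over the 148 probes called lower (left) and the 49 called higher (right) on each of the 15 cortex arrays, by group, with the COX-2 line red, the COX-1 line blue, wild-type arrays filled and symbols for the replicate number. COX-1-/- replicate 3 sits at 0.576 among the COX-2 line on the left, away from COX-1-/- replicates 1 and 2 at 0.769 and 0.791.

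Single genes showed both arrangements, and some showed others. Mtor was at 0.0273, 0.104 and 0.0234 in COX-2-/- and at 0.727, 0.661 and 0.218 in COX-1-/- cortex, so that replicates 1 and 2 of COX-1-/- held the level of COX-1+/+ and replicate 3 that of the COX-2 line. Ctnnd1 was at 0.253, 0.243 and 0.121 in COX-2-/- and 0.732, 0.715 and 0.446 in COX-1-/- cortex, and Prrg4 at 0.0249, 0.0939 and 0.0685 in COX-2-/- and 0.573, 0.518 and 0.193 in COX-1-/- cortex. Arhgap20 was at -0.363, -0.325 and -0.433 in COX-2-/- and 0.197, 0.375 and -0.315 in COX-1-/- cortex, and COX-1-/- replicate 3 was below the other 2 for each of these genes. By contrast, all 3 COX-1-/- arrays lay near the COX-2 line for Rab11a, at 0.688, 0.631 and 0.558 in COX-2-/- and 0.690, 0.794 and 0.601 in COX-1-/- cortex. The same held for Eif4a1, at 0.793, 0.840 and 0.798 in COX-2-/- and 0.774, 0.914 and 0.709 in COX-1-/- cortex. Mapk13 was at 0.896, 0.956 and 0.972 in COX-2-/- and 0.935, 0.936 and 0.410 in COX-1-/- cortex, with COX-1-/- replicate 3 below the rest, and for these 3 genes COX-1+/+ lay above both null groups.

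Null cortex gave a second comparison of the lines on arrays that the wild-type difference did not use, although there the deleted gene differs too. Both comparisons took the spread of each probe from the same 15 cortex arrays, so their calls are not independent. COX-2-/- minus COX-1-/- cortex gave 122 limma calls (2.97%), 24 higher and 98 lower. Of the 197 wild-type calls, 130 had the same sign in null cortex (66%), 104 of the 148 lower and 26 of the 49 higher, and 52 were called in the same direction and 0 in the opposite one. Their median difference in null cortex was -0.101 for the lower and 0.00972 for the higher calls, beside -0.00154 for all tested probes. Mtor differed by -0.484 (limma adjusted p = 0.00380), Ctnnd1 by -0.425 (0.00168), Bub1b by -0.356 (0.00380), Prrg4 by -0.365 (0.00509), Atp5mpl by -0.352 (0.00168), Arf3 by -0.273 (0.00999) and Arhgap20 by -0.459 (0.0214), all lower in COX-2-/- than in COX-1-/- cortex. Without COX-1-/- replicate 3 these 7 differences were -0.659 to -0.339 and all were called. For Ddx24, Fcer1g, Mapk13, Tiparp, Agtrap, Rab11a and Eif4a1 the null difference was between -0.152 and 0.181 and was not called, and without that array it was between -0.276 and 0.0263 and was not called either. Without COX-1-/- replicate 3 the null comparison gave 246 calls, and 145 of the 197 wild-type calls had the same sign (73.6%), 66 of them called and 0 called in the opposite direction. Without COX-1-/- replicate 1 or 2 it gave 16 or 17, and without COX-2-/- replicate 1, 2 or 3 it gave 39, 34 or 52, so this count rests on single arrays. Across all 4103 tested probes the 2 differences had a Pearson r of 0.321, a description, since probes of the same arrays are not independent.

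**Figure D5:**
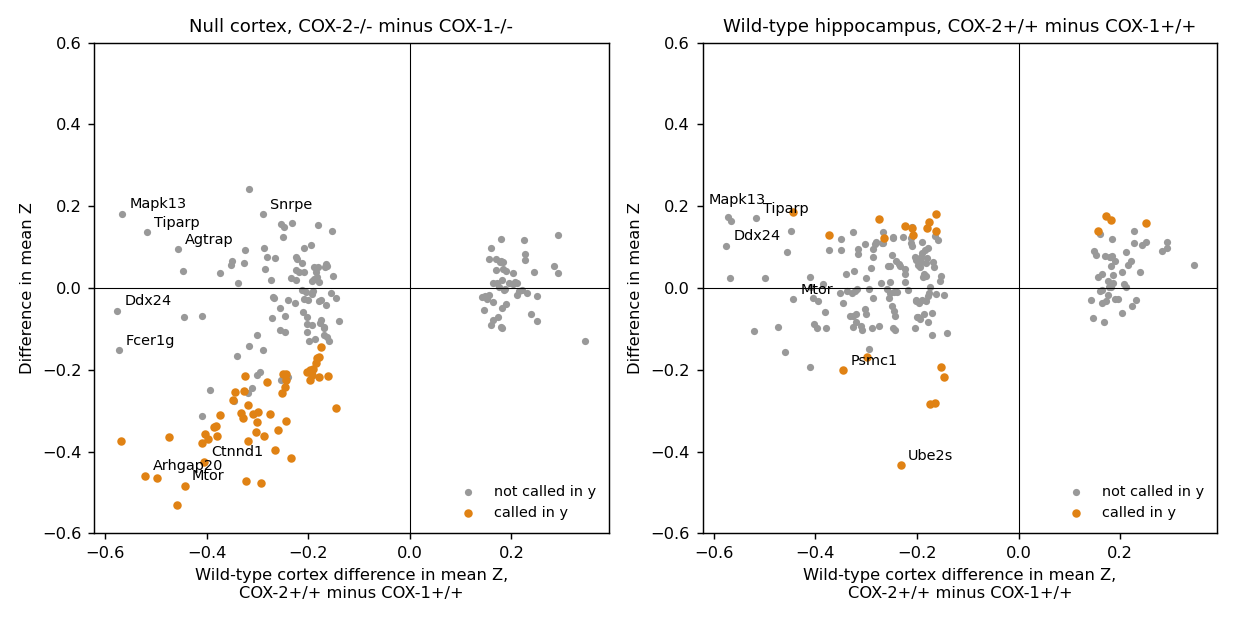
Line difference in null cortex (left, COX-2-/- minus COX-1-/-) and in wild-type hippocampus (right, COX-2+/+ minus COX-1+/+) against the difference in wild-type cortex, in SD units of ln intensity, for the 197 called probes, with orange points called on the vertical axis as well. In null cortex 104 of 148 lower probes lie below 0 and 26 of 49 higher probes above it, and in hippocampus 67 and 36 do.

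In hippocampus of the same 2 lines the probes called in cortex were split in sign. COX-2+/+ minus COX-1+/+ hippocampus gave 627 limma calls over the same probes (15.3%), 396 higher and 231 lower, and 490 higher and 197 lower after median centring. Of the 197 cortex calls, 103 had the same sign there (52.3%), 36 of 49 higher and 67 of 148 lower, with 11 called in the same direction and 11 in the opposite one. The lower calls had a median of 0.0204 in hippocampus and the higher calls of 0.0535, beside 0.0186 for all tested probes, and across all tested probes the 2 differences had an r of 0.126. Whether the 2 regions came from the same animals is not given in the labels. The difference between the regions was itself called for 266 tested probes (6.48%) and for 91 of the 197 (46.2%), of which the cortex values had already been chosen as large. Among named genes, one Ube2s probe was lower in both regions, at -0.433 in hippocampus (limma adjusted p = 1.03e-05), as was one Psmc1 probe, at -0.201 (0.0301), and Dync1li1 was higher in both, by 0.165 (0.0226). Mtor, Ctnnd1, Rab11a and Eif4a1 differed by -0.0270, -0.0234, 0.00128 and -0.00823 in hippocampus and were not called there. Fcer1g, Mapk13 and Tiparp had higher means in COX-2+/+ hippocampus, at 0.173, 0.165 and 0.170, and were not called either.

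A rule built on that of the study called a similar number. It takes a mean Z above 0, a Z test P under 0.05 and a z ratio beyond 1.5 in size. The methods name as divisor of the z ratio the SD of the genes of an array, which is 1 for Z scores, and no probe met the rule so. The divisor used here instead, and meant wherever the study's rule is named, was the SD of all differences, 0.1165. It was met by 212 probes (5.17%), 52 higher (1.27%) and 160 lower (3.9%), and 163 of them were limma calls, 76.9% of the rule's calls and 82.7% of limma's. The z ratios of Ddx24, Fcer1g and Mapk13 were -4.94, -4.92 and -4.86, and that of Adamts17 was 2.09. Of the genes that the study names in cortex of both lines or measured by Q-PCR, 3 had a tested probe here by symbol, of which Slc6a13 was called by limma, and the called probe annotated Snrpe carries the accession of another. Immt, which shapes mitochondrial cristae, was at 2.10, 1.96 and 2.08 in COX-2+/+, against 2.29, 2.39 and 2.35 in COX-1+/+ cortex. It met the study's rule, with a z ratio of -2.55, but not limma's threshold (difference -0.298, SE 0.0930, limma adjusted p = 0.0768), and in null cortex it differed the other way, by 0.408 (limma adjusted p = 0.0240), or 0.461 without COX-1-/- replicate 3. Hsd17b10, a mitochondrial dehydrogenase, differed by -0.0379 and overlapped.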

How the data were processed

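Total RNA of cerebral cortex was reverse transcribed with 33P-dCTP and hybridised to a custom nylon cDNA array; the authors scanned the membranes on a phosphoimager and turned intensities into Z scores of the natural log intensity per array. The deposited table holds these scores for 30 arrays without missing values, and a genome build is not given in the sources used here. Groups were taken from the sample labels. Gene symbols came from the platform annotation; of the 8448 probes analysed 4875 carry 1 symbol, 224 several and 3349 none. Group means of the 15 cortex arrays (or of the 15 hippocampus arrays, or of all 30 for the contrast between regions) were modelled in R 4.3.3 by limma 3.58.1 and its moderated variances (eBayes), and p-values were adjusted by Benjamini and Hochberg's method across the 4103 probes tested; a call is an adjusted p under 0.05. The procedure was checked on simulated data. The study's rule, with the SD of all differences as divisor of the z ratio, was computed on the 6 arrays alone. No sequencing depth applies.

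Genes were named by a rule: the 12 largest differences in each direction among limma calls with 1 symbol and without overlap, the 5 smallest p, up to 4 called members of a list, further probes of these genes, and genes the study names in cortex of both lines or measured by Q-PCR. The comparison, the gene lists and the rule were chosen with earlier results of these data known. Alternatives were median centring, quantile normalization, other filters, other sets of arrays, an intensity trend, correction by running medians over 100 rows on each side, the replicate number as a block, and leaving out each array. In hippocampus every same-numbered pair of wild-type arrays correlated above 0.1 in its deviations (r of 0.186, 0.107 and 0.254). This does not establish that the arrays are paired, and the labels give no pairing. Gene neighbours came from RefSeq annotation. Figures were drawn by matplotlib 3.10.9 under Python 3.11.15.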

Additional observations from a re-analysis of the deposited data

Results flagged for a closer look

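For 19 named genes the line difference was not the same in the 2 regions, by a limma contrast of the cortex difference minus the hippocampus difference, with adjustment over all 4103 tested probes. The cortex differences had been picked as large ones, so these values are not free of that choice. The gap was widest where cortex was lower and the hippocampal mean was higher in the COX-2 line: Fcer1g gave -0.746 (limma adjusted p = 0.00742), Mapk13 -0.731 (0.00249), Tiparp -0.687 (0.00116), Ddx24 -0.679 (0.00703), one Zfand6 probe -0.586 (0.00178) and Agtrap -0.543 (0.0157). The second Zfand6 probe gave 0.182 (0.0528), so no direction is given for that gene. The hippocampal difference of these 6 probes lay between 0.0874 and 0.173 and none of them was called there by limma. Arf3 gave -0.468, Ndufa10 -0.463, Atp5mpl -0.410, Glo1 -0.370, Srsf10 -0.365 and Snrpe -0.338, with adjusted p from 0.00559 to 0.0394. Mtor gave -0.417, Rab11a -0.410, Ctnnd1 -0.382, Eif4a1 -0.329 and Bub1b -0.315, with adjusted p from 0.00116 to 0.0443 and hippocampal differences between -0.0877 and 0.00128. Rbm39 and Psmd10, higher in cortex of the COX-2 line, gave 0.201 and 0.253 (limma adjusted p = 0.0208 and 0.0138), with hippocampal differences of -0.0373 and -0.0840.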

How the results depend on the processing

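Of 197 limma calls, 181 stayed called after median centring (182 calls), 180 after quantile normalization (188), 191 with an intensity trend (195), 137 after correction for row order (173), 69 without the filter (132) and 190 with all 30 arrays (278). The count was 119 at a mean Z above 0.5, and 120, 9 higher and 111 lower, from the 6 compared arrays alone. Leaving out 1 array gave 52 to 200 calls: 111, 121 and 52 on omitting COX-2+/+ replicate 1, 2 or 3, and 200, 115 and 113 on omitting COX-1+/+ replicate 1, 2 or 3. With COX-1-/- replicate 3 left out of the spread, chosen after the data were seen, it was 271, all 197 among them. The study's rule gave 517 calls without the filter, 121 at a mean Z above 0.5, 101 at a z ratio beyond 2, 0 without the division by the SD (against 787 probes at an unadjusted limma p under 0.05), 165 with an adjusted P and 167 to 206 with 1 array left out, and its probes covered 130 genes.

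The hippocampus count was 1855 without the filter, 767 with the block and 288 to 536 with 1 array left out. The null cortex count was 7 without the filter, 71 after median centring, 190 with the replicate block and 16 to 246 with 1 array left out. The difference between regions gave 611 calls without the filter and 146 to 330 with 1 array left out. Of the 44 called probes of named genes none changed sign, and 13 lost the call after correction for row order. Sign changes were limited to 5 probes not called to begin with, whose values with 1 array left out ran from -0.0172 to 0.0222 for Mios, -0.0841 to 0.0334 for Adamts17, -0.0340 to 0.0360 for Ube2s, -0.0390 to 0.114 for Calb1 and -0.101 to 0.00534 for Hsd17b10. The sign turned for Mios at 0.00761 without COX-2+/+ replicate 1 and 0.0222 without COX-1+/+ replicate 1, Adamts17 at 0.0173 without COX-2+/+ replicate 2 and 0.0334 without COX-1+/+ replicate 3, Ube2s at 0.0187 and 0.0360 without the same arrays, Calb1 at -0.0268 and -0.0390 without COX-1+/+ replicate 1 or 2, and Hsd17b10 at 0.00534 without COX-1+/+ replicate 1. The cause of these changes was not tested.

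The replicate number as a block gave 250 wild-type cortex calls, 73 higher and 177 lower, and kept all 197. Same-numbered COX-2+/+ and COX-1+/+ cortex arrays correlated in their deviations with r of 0.161, -0.00146 and 0.135, and in null cortex with r of 0.115, 0.136 and 0.0644. These values do not establish whether the numbers pair the cortex arrays. Signal over background limits the rest, since probes below the array mean were not tested.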

Other observations

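Called genes outside the lists and the naming rule, were picked here by hand after their values were seen, and no list or test stands behind their grouping. Castor1, the arginine sensor that acts on GATOR2 upstream of mTORC1, was at -0.0619, -0.0149 and -0.249 in COX-2+/+, against 0.214, 0.224 and 0.283 in COX-1+/+ cortex (difference -0.349, limma adjusted p = 0.00250), lower like Mtor on all COX-2+/+ arrays. Pink1, the kinase that marks damaged mitochondria for removal, was at 0.107, 0.0873 and -0.0515 in COX-2+/+, against 0.405, 0.437 and 0.420 in COX-1+/+ cortex (difference -0.373, limma adjusted p = 0.00595). Arl1 of the Golgi differed by -0.332, Snf8 of the ESCRT-II complex by -0.319, Arl3 by -0.271, the sorting nexin Snx4 by -0.266 and Vps45, which acts on endosomal SNARE proteins, by -0.257, each lower without overlap in COX-2+/+ cortex. Nipbl, which loads cohesin, was at 0.130, 0.185 and 0.0640 in COX-2+/+, against 0.609, 0.513 and 0.440 in COX-1+/+ cortex (difference -0.394, limma adjusted p = 0.00349), and the remodelling subunits Bptf and Smarcb1 differed by -0.323 and -0.275. The second probes of Nipbl, Bptf and Smarcb1 differed by -0.0729, -0.0335 and 0.0764 and were not called. In null cortex Pink1, Arl1, Snf8, Snx4, Bptf and Smarcb1 were also called lower by limma in COX-2-/- than in COX-1-/-, with differences of -0.473 to -0.306, and -0.631 to -0.375 without COX-1-/- replicate 3, where all 6 were called again. Castor1, Arl3, Vps45 and Nipbl differed by 0.0664, -0.0737, -0.0491 and -0.250 and were not called, although Nipbl was called without that replicate, at -0.355.

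Of the 197 cortex calls, 11 were called in the same direction in hippocampus and 11 in the opposite one. Over all tested probes, 627 of 4103 (15.3%) were called there. A few genes called in the same direction are given here. Crtc1, a coactivator of CREB, differed by -0.298 in cortex and -0.168 in hippocampus (limma adjusted p = 0.0128 and 0.0356). Bpgm, an enzyme of red cell glycolysis, differed by -0.175 and -0.283, with a second probe at 0.0698 in cortex, and Tet3, a 5-methylcytosine oxidase, by -0.164 and -0.281. Hmgn5, a nucleosome-binding protein, was higher by 0.173 and 0.176. Hbb-y, an embryonic beta globin whose probe may read other beta globins, had the smallest called difference in cortex, -0.140.

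Ptgs1 and Ptgs2 were not analysed here. Of the 25 annotated genes on each side of Ptgs2, 5 had 6 tested probes, for Aspm, Lamc1, Niban1, Pla2g4a and Ro60, with 0 limma calls, 1 unadjusted p under 0.05 and differences of 0.00600 to 0.0876, and of those around Ptgs1, 4 genes had 4 tested probes, with 0 limma calls, 0 unadjusted p under 0.05 and differences of -0.0306 to 0.0920. In the row order of the table, 32 of the 49 higher and 83 of the 148 lower calls had another call of the same direction within 20 rows. The share that randomly placed calls would give was not computed, so these counts do not say whether the calls cluster. Correction for row order removed the call of 13 of the 44 called probes of named genes. What part row position had in the calls was not tested. The running median of the difference over 100 rows on each side ranged from -0.110 to 0.0769.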
